A study of Mus musculus with 6 samples.

Results

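Captured DNA methylation was examined in 9 imprinted domains of the mouse genome, in microglia taken at peak disease in experimental autoimmune encephalomyelitis (EAE) and in naive microglia. The domains are 9 intervals of build mm10, 2600 kb in all, chosen by position and by no measured value, and they hold 4070 of the 2915907 windows of 50 bp that the deposited methylation files list on chromosomes 1 to 19. The intervals are named here by their best known genes: H19-Kcnq1ot1 (chr7:142500000-143500000, 1119 windows), Meg3 (chr12:109400000-109700000, 752 windows), Igf2r (chr17:12650000-12900000, 532 windows), Gnas (chr2:174250000-174400000, 480 windows), Peg3 (chr7:6600000-6800000, 440 windows), Peg10 (chr6:4700000-4850000, 313 windows), Mest (chr6:30700000-30800000, 194 windows), Snrpn (chr7:59900000-60200000, 128 windows) and Grb10 (chr11:11950000-12100000, 112 windows). Of the 4070 windows, 1782 (43.8%) reached 20 reads over the 4 libraries and could be tested, against 936715 (32.1%) of all listed windows.

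The microglia came from C57Bl/6 mice carrying Ccr2rfp/+ and Cx3cr1gfp/+, a red and a green reporter in 1 copy each of 2 chemokine receptor genes, and the mice of both groups carried these reporters. The peak group had EAE, an autoimmune inflammation of brain and spinal cord, induced at 24 to 28 weeks of age with a myelin oligodendrocyte glycoprotein peptide (residues 35 to 55), and peak was defined by a clinical score that had stopped worsening. The naive group was taken before induction, at an age the labels do not give. Cells of 30 mice were pooled per condition, and F4/80 and CD45 were stained for the sort. Methylated DNA fragments were pulled down with a methyl-CpG binding domain and sequenced (MiGS) in 2 libraries per condition, and RNA was sequenced in 1 library per condition. The submitters call the methylation libraries biological replicates but do not say whether they came from separate pools, so the p-values here reflect library-to-library spread, some of which may be technical. Naive replicate 2 stood apart from the other 3 methylation libraries at the most strongly captured regions, so the sums that rest on it are also given without it.

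At an imprinted domain, genes are expressed from 1 parental copy. The choice of copy is set by a control region that receives methylation in the egg or the sperm (a germline differentially methylated region) and keeps it on that copy in body cells, while secondary regions gain methylation after fertilisation. Because a germline region keeps its methylation on 1 copy in body cells, it is captured by methyl-CpG binding in normal cells. The other CpG-rich gene starts around germline and secondary regions are as a rule free of methylation.

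The sequences below were chosen by hand to show captured and uncaptured starts. The first 4 sequences are starts at known differentially methylated regions, with methylation known to sit on the maternal copy (Igf2r on the paternal copy), and the last 2 are CpG-dense starts in the same domains at which no window was listed. Each runs from 250 bases before to 50 bases after a start, 5′ to 3′ on the gene's strand, from RefSeq (GRCm38.p6), and capitals mark CpG.
Peg3 (chr7:6730370-6730669, minus strand): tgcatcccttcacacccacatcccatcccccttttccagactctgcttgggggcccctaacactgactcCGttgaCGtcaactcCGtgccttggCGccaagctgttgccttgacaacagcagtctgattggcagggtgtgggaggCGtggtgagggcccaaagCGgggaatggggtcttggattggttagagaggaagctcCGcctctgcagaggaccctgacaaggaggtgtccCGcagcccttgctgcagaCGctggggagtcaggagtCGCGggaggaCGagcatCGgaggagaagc
Snurf-Snrpn (chr7:60005150-60005449, minus strand): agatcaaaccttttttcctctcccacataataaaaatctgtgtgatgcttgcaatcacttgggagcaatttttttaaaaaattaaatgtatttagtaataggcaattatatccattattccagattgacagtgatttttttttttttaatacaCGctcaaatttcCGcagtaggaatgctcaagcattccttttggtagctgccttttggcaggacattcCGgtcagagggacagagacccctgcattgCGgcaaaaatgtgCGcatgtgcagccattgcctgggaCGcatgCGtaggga
Gnas exon 1A (chr2:174327499-174327798, plus strand): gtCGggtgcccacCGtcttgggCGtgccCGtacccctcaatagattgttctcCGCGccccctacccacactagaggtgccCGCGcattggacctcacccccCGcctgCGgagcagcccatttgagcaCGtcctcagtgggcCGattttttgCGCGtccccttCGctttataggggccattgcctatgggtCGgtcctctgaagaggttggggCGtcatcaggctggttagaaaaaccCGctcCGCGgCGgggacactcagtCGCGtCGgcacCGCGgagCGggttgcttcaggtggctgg
Igf2r (chr17:12769657-12769956, minus strand): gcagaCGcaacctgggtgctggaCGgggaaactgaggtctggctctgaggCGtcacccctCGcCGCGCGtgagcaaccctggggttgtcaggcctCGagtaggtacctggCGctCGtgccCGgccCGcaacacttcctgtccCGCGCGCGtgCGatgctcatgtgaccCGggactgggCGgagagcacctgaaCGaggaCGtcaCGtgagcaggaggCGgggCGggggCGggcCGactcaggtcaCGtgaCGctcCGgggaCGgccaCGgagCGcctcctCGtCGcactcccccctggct
Gnas last start (chr2:174329756-174330055, plus strand): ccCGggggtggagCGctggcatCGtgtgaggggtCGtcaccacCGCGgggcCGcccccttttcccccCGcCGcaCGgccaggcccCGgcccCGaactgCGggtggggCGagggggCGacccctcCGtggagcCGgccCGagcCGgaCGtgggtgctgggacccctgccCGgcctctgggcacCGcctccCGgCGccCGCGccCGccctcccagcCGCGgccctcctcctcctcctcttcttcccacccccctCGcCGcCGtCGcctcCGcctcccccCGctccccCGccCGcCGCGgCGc
Cd81 (chr7:143052500-143052799, plus strand): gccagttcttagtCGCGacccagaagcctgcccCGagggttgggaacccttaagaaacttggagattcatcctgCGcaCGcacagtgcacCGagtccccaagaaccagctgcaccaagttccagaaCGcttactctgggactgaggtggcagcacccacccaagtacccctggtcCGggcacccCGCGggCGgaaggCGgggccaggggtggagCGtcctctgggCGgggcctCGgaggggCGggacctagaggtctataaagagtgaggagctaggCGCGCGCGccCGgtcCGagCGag

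The Peg3 sequence holds 13 CpG and drew 634 reads over the 4 libraries, and the Snurf-Snrpn sequence with 7 CpG drew 491. Gnas exon 1A has 27 CpG and 1389 reads, and Igf2r has 34 CpG and 806 reads. The last start of Gnas, which makes the stimulatory G protein subunit, has 40 CpG and 0 listed reads, and Cd81, a tetraspanin of the cell surface, has 23 CpG and 0 listed reads. These 6 starts were picked by hand, the last 2 as CpG-dense starts at 0 reads, so they cannot show how CpG density relates to capture. A start at 0 here means that no library reached the depth at which the deposited files list a window, which was 3 reads in at least 1 library, so lower capture was not detectable. The start with most CpG in the domains, the first start of Grb10 (45 CpG), was also at 0 in its 300 bases. The hexamer TGCCGC, bound in its methylated form by the zinc finger protein ZFP57 in mouse embryonic stem cells, was searched on both strands (no other motif was searched). Only the promoter sequences of 300 bases were searched, and the rest of each region was not. The hexamer was found in 3 of the 9 promoter sequences at known regions, germline and secondary (1 copy at Snurf-Snrpn and at Meg3, 2 copies at Mest). The share was 11.6% of all 31396 promoters and 22.2% of those with 10 or more CpG.

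Over all gene starts in the intervals, 20 of 64 promoters of 42 genes drew at least 20 reads and 14 drew at least 200 reads. Some of these promoters overlap and count the same reads (Snurf with Snrpn, Peg3 with Usp29, and neighbouring starts of Gnas and of Mest), so they are not independent. Of all promoters, 10.4% reached 20 reads and 2.3% reached 200. Over the genome's promoters with 20 or more CpG, 314 of 8491 reached 20 reads and 73 reached 200. Of those with 10 to 19 CpG, 941 of 5309 (17.7%) reached 20 reads and 431 (8.12%) reached 200. Wider regions, from 1000 bp before to 500 bp after a start, were taken at 13 known imprinted starts, beside the 2 control regions away from a start (H19 control region and Dlk1-Meg3 intergenic region), which were taken over a longer stretch. All 15 drew at least 200 reads, from 579 at the H19 start to 3558 at Gnas exon 1A. Of the 48 other starts listed in the intervals, taken over the same 1000 and 500 bp, 26 were at 0 reads, 15 drew at least 20 and 7 drew at least 200. These 48 include neighbouring starts of 1 gene, so they are not independent. Starts at 0 included Cd81, Tssc4, Ascl2 (a transcription factor of placenta and T cells), Mrpl23 (a mitochondrial ribosomal protein) and Zim1.

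**Figure D1:**
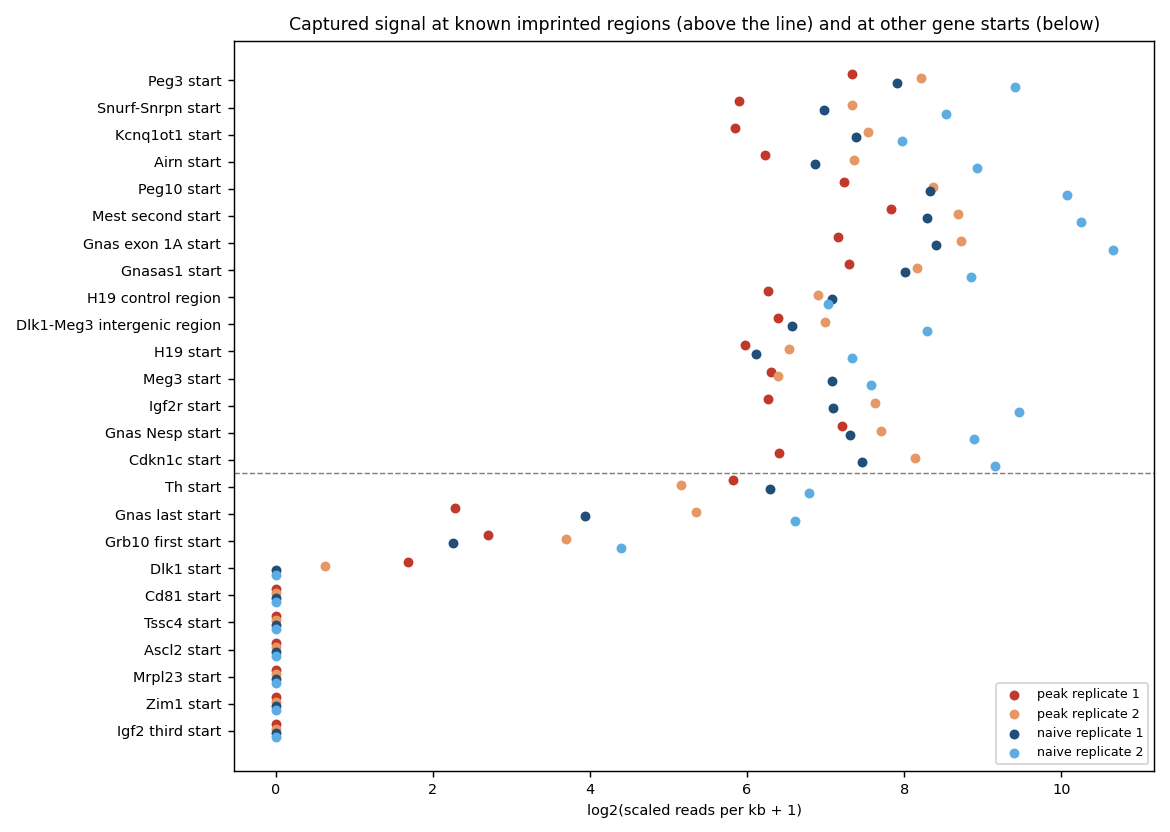
Captured signal, as log2(scaled reads per kb + 1), at 15 known imprinted regions (above the dashed line) and at 10 other gene starts (below), with 1 point per library (2 peak and 2 naive). The 10 other starts were chosen after their values were seen; 6 of them are at 0 in every library, and every known region is above 5 in every library.

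Captured DNA was lower on average in the peak libraries across the intervals, but the groups overlapped. Summed over the 2600 kb, the signal was 9.55 and 12.9 scaled reads per kb in peak replicates 1 and 2, against 12.04 and 25.2 in naive replicates 1 and 2 (11.2 ± 2.34 in peak and 18.6 ± 9.30 in naive, SD, n = 2 each). Naive replicate 2 stood apart as the highest library and peak replicate 1 was the lowest, while peak replicate 2 lay above naive replicate 1. The log2 ratio of the means was -0.73, and -0.10 without naive replicate 2. With 2 libraries against 2, an exact permutation test cannot give a p under 0.333. As a share of all reads over windows, the domains took 0.0682% and 0.116% in the peak libraries, against 0.0906% and 0.154% in the naive libraries, which held 43970332 and 35285601 reads (peak) and 30424742 and 36501153 reads (naive).

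Among the domains, Gnas carried the most signal per kb and Snrpn the least. Gnas had 22.6 and 39.7 scaled reads per kb in peak libraries, against 34.9 and 99.2 in naive libraries. Snrpn had 1.30 and 2.88 in peak, against 2.002 and 7.90 in naive. The log2 ratio of the means ran from -1.41 at Grb10 and -1.24 at Snrpn to -0.40 at Meg3, and it was negative in all 9 domains. Without naive replicate 2 it was positive at Grb10 (0.15), Mest (0.16) and Snrpn (0.06) and between -0.27 and -0.04 at the other 6. Signal was concentrated: 1 run of windows held 84.4% of the reads of the Grb10 interval and 55.9% of the Mest interval, against 6.30% for the leading run of the Meg3 interval.

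No window and no run passed the test. A captured run here is a stretch of at least 4 tested windows no more than 100 bp apart, and limma with Benjamini-Hochberg adjustment over all 936715 windows or all 127989 runs called 0 of 1782 domain windows and 0 of 183 domain runs. The background was 0% in both directions, windows and runs alike; the lowest adjusted p was 0.818 among domain windows and 0.791 among domain runs. At an unadjusted p under 0.05, 23 domain windows were higher and 74 lower in peak, where the background was 2.07% higher and 2.5% lower, and 2 runs were higher and 6 lower, where it was 1.55% and 3.81%. The edgeR quasi-likelihood test and DESeq2 on recovered reads also called 0 domain windows and 0 domain runs. The median log2 change was -0.42 over domain windows, 1206 lower and 576 higher, and -0.09 over all tested windows. TMM scaling moved the median of all windows to 0.05, and the domain median minus the median of all windows was then -0.35, beside -0.32 with the deposited scaling. That difference was -0.10 without naive replicate 2, -0.18 without peak replicate 1, -0.47 without peak replicate 2 and -0.55 without naive replicate 1.

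The change followed the level of capture in and outside the domains. Tested windows were split into 10 bins of equal size by mean signal over the 4 libraries. In the lowest bin the median log2 change was 0.68 for domain windows and 0.81 for all windows, and in the highest bin it was -1.35 and -1.11. The top bin held 313 domain windows (17.6%). Both groups' libraries enter the mean that orders the windows, so the trend is a description. In 168 domain windows both peak libraries were above both naive libraries and in 413 both were below, with a background of 16.8% and 18.7%. In the highest bin both were below in 30.4% of domain windows and 31.5% of all windows. In the next bin down these shares were 33.5% and 35.6%, and in every lower bin the domain share was the larger. Among domain runs the counts were 10 above and 55 below, with a background of 12.3% and 22.8%. With TMM scaling they were 16 above and 42 below, where all runs gave 19.6% and 16.6%.

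**Figure D2:**
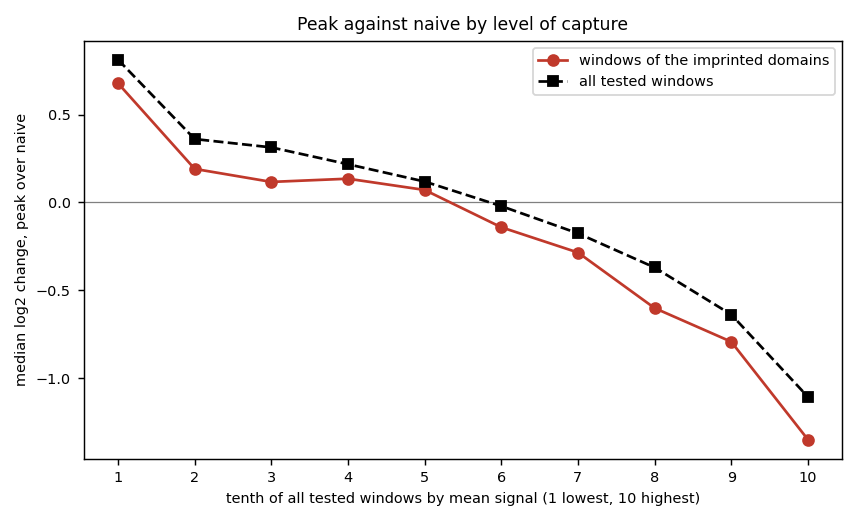
Median log2 change, peak over naive, in 10 bins of all tested windows by mean signal, for windows of the imprinted domains (circles) and all tested windows (squares). Both lines descend, with the domains at 0.68 in the lowest bin and -1.35 in the highest.

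Long runs were more frequent in the domains. Of 183 domain runs 16 (8.74%) were at least 1000 bp long, against 745 of 127989 (0.582%) over the genome, while the median run was 250 bp in both. The 9 runs at maternal germline regions were 1000 to 2200 bp long. Their log2 change lay between -1.60 and -0.87, with a median of -1.17 beside -0.49 for all domain runs and -0.27 for all runs. These medians were not matched for level of capture. In the bin of the most strongly captured single windows the median was -1.11 over all windows and -1.35 over domain windows. In all 9 runs the peak mean was lower, the groups overlapped, naive replicate 2 was the highest library and peak replicate 1 the lowest. Without naive replicate 2 the 9 changes lay between -0.58 and -0.03. With quantile normalization their median was -0.10, between -0.50 and 0.22, and 6 of 9 were lower.

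The Gnas domain held several long runs. All sums below are scaled reads over the windows of a run, in which 1 fragment counts in several windows. The run at exon 1A (chr2:174327051-174328100), whose methylation silences the exon 1A transcript on the maternal copy, had 208 and 626 in peak, against 501 and 2402 in naive (log2 change -1.60 ± 1.19 SE, limma adjusted p 0.791). The run at the start of Gnasas1, also called Nespas and antisense to Nesp (chr2:174295151-174296550), had 210.3 and 440.1 in peak, against 397 and 776 in naive. A shorter run (chr2:174296901-174298150) lay between the Gnasas1 run and a 2750 bp run inside Gnas (chr2:174298351-174301100). The 2750 bp run had 440.5 and 1529 in peak, against 1243 and 4415 in naive (-1.51 ± 1.39). In this run replicate 2 was 3.47 times replicate 1 in peak and 3.55 times in naive.

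The other maternal germline runs had the same order of libraries. Peg10, a gene derived from a retrotransposon and needed in placenta, had 474 and 1092 in peak, against 1064 and 3899 in naive (chr6:4746851-4748850, -1.50 ± 1.35). At Airn, the noncoding RNA that silences Igf2r in cis, the sums were 239 and 657 in peak, against 481 and 2422 in naive (chr17:12741301-12742600, -1.44 ± 1.21). At Grb10, an adaptor that restrains growth factor signalling, the run lies inside the gene (chr11:12025351-12026950) and had 304 and 915 in peak, against 568 and 3395 in naive (-1.40 ± 1.28). In each of these the 2 naive libraries differed from each other by more than the 2 peak libraries did.

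Kcnq1ot1, the noncoding RNA that silences the neighbouring genes in cis, had 261 and 745 in peak, against 658 and 1496 in naive (chr7:143295001-143296650, -1.17 ± 1.19). Peg3, a zinc finger protein, had 258 and 543 in peak, against 409 and 1599 in naive (chr7:6729351-6730650, -1.11 ± 1.15). The start of Snurf-Snrpn, within the domain of Prader-Willi syndrome in humans, had 134 and 292 in peak, against 238 and 616 in naive (chr7:60004301-60005300, -0.95 ± 0.95). Mest, a hydrolase-like protein of mesoderm, had 471 and 817 in peak, against 632 and 2179 in naive (chr6:30736751-30738950, -0.92 ± 1.26). None of these 4 changes was larger than its SE.

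**Figure D3:**
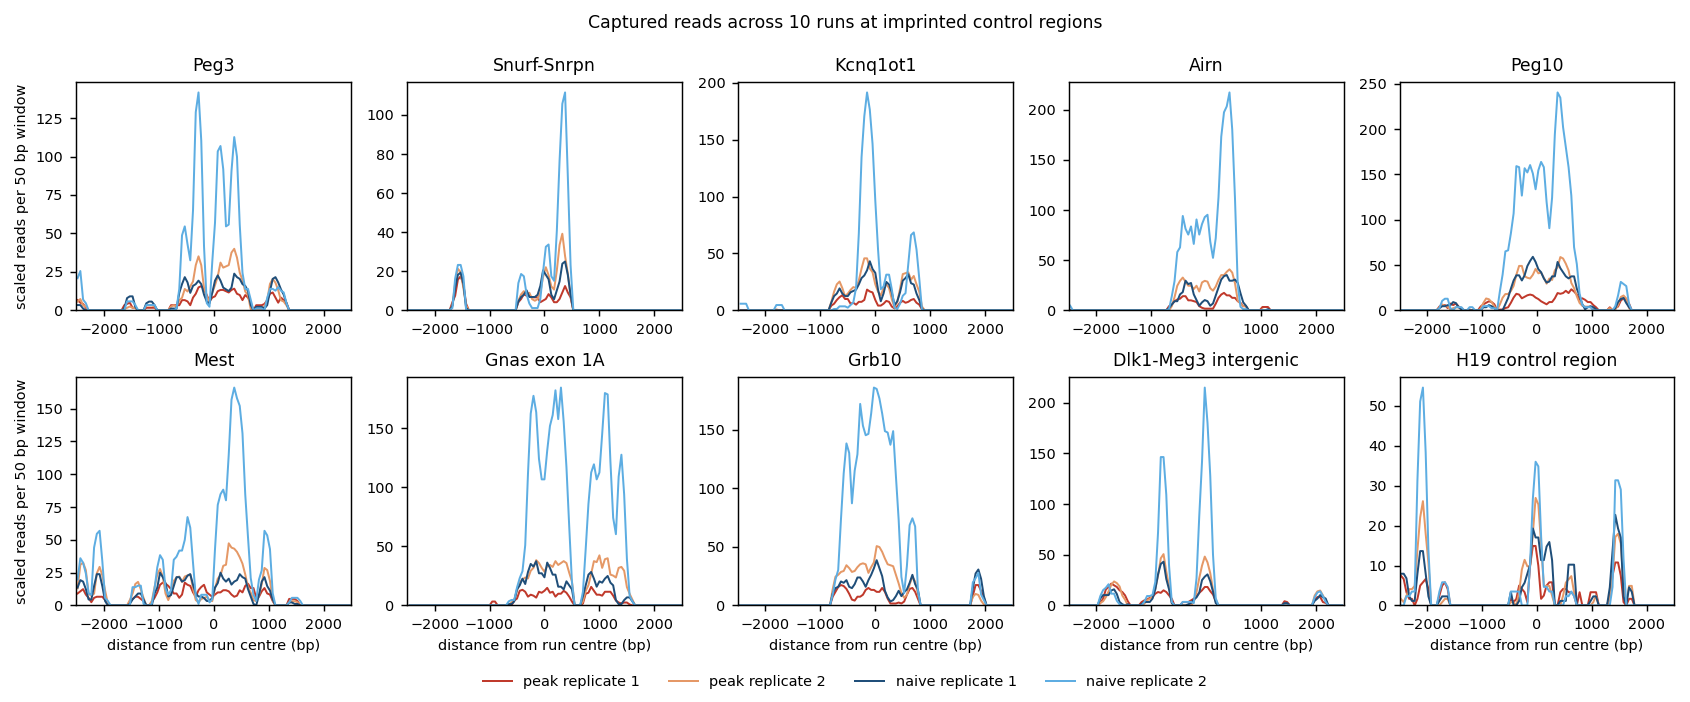
Scaled reads per 50 bp window within 2500 bp of the centre of 10 runs, 8 at maternal germline regions and 2 at the paternal ones (Dlk1-Meg3 intergenic and H19 control region), with 1 line per library. The y axes differ. Naive replicate 2 reaches the highest window in all 10 panels.

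The ratio of replicate 2 to replicate 1 differed between classes of runs, which were not matched for level of capture. At the 9 maternal germline runs replicate 2 was a median of 2.30 times replicate 1 in peak and 3.67 times in naive, where all runs gave 1.37 in peak and 1.16 in naive. At the 6 paternal germline runs the medians were 1.85 in peak and 1.41 in naive. The 164 other runs, of which some lie inside or next to a known region, gave 1.41 in peak and 1.29 in naive. Strong runs of other classes varied. The 2750 bp run inside Gnas covers no listed start and was counted among the other runs, though it lies near the germline run at Gnasas1. The ratios in peak and naive were 3.47 and 3.55 in the 2750 bp run inside Gnas and 3.01 and 3.03 at Cdkn1c. They were lower at the long runs over Rtl1 described below. The part of these replicate differences in the comparison of peak and naive was not tested.

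**Figure D4:**
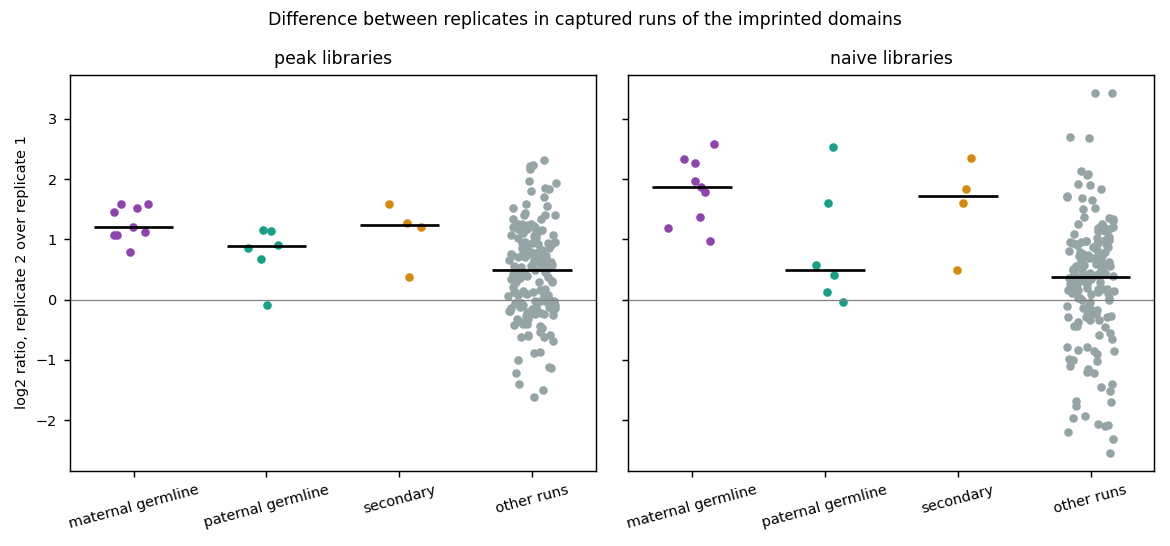
Log2 ratio of replicate 2 over replicate 1 in each captured run of the domains, for the peak libraries (left) and the naive libraries (right), by class of run; black bars are medians. The 9 maternal germline runs lie above 0 in both, and the naive ratios of the 164 other runs spread to both sides of 0.

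The paternal germline regions did not all follow that order. The H19 control region, bound by CTCF on the unmethylated maternal copy, held 2 runs. The longer one (chr7:142580051-142580650) had 78.7 and 143 in peak, against 146 and 142 in naive (log2 change -0.44 ± 0.72, adjusted p 0.855), so that only peak replicate 1 stood apart. The shorter one (chr7:142581701-142581900) had 36.4 and 58.0 in peak, against 72.7 and 96.4 in naive, with both peak libraries below both naive libraries.

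The region between Dlk1 and Meg3, which controls the noncoding RNAs of the maternal copy, held 4 runs that differed in direction. The run farthest from Meg3 (chr12:109526451-109526900) had 131 and 123 in peak, against 84.0 and 91.8 in naive (0.53 ± 0.68, limma adjusted p 0.820), so both peak libraries lay above both naive libraries. Its reads were 158 and 151 in peak, against 74 and 79 in naive, so the peak libraries did more to meet the minimum of 20 reads per window. The 2 strongest runs had 96.9 and 216 in peak, against 186 and 566 in naive (chr12:109527301-109527750, -1.16), and 102 and 223 in peak, against 144 and 836 in naive (chr12:109528201-109528600, -1.20). The fourth run (chr12:109530351-109530550) had 25.7 and 48.2 in peak, against 29.5 and 44.1 in naive, a log2 change of -0.04 that was positive with edgeR and DESeq2. Within the first run, the window at chr12:109526801-109526850 had the smallest p of all domain windows with higher peak values and was not called. It had 14.9 and 18.8 scaled reads in peak, against 3.41 and 1.16 in naive. These are 18 and 23 reads in peak, against 3 and 1 in naive, so the window met the minimum of 20 reads through the peak libraries alone.

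Secondary regions were all lower in the peak mean. At the Meg3 start, a noncoding RNA of the maternal copy, the run (chr12:109540701-109541050) had 53.0 and 68.6 in peak, against 136 and 192 in naive (-1.41 ± 0.66, unadjusted p 0.038, limma adjusted p 0.791), and it was the only one of the 4 secondary runs with no overlap. The Igf2r start, a receptor that clears insulin-like growth factor 2, had 129.995 and 314 in peak, against 223 and 1130.1 in naive (chr17:12769051-12770100, -1.31 ± 1.01). Nesp, the first start of Gnas, had 453 and 1039 in peak, against 803 and 2870.1 in naive (chr2:174284051-174286850, -1.14 ± 1.31). At Cdkn1c, an inhibitor of cyclin-dependent kinases, a 2700 bp run had 310.5 and 936 in peak, against 608 and 1844 in naive (chr7:143458851-143461550, -0.97 ± 1.23). The H19 start had 61.8 and 92.0 scaled reads per kb in peak, against 68.1 and 161 in naive.

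Among the runs classed as neither germline nor secondary, those with the smallest p lay in gene bodies and between genes. The classes take in only the regions listed here, so other known imprinted regions may lie among these runs. A run inside Igf2, a fetal growth factor (chr7:142654201-142654500), had 41.4 and 75.1 in peak, against 136 and 281 in naive (-1.79 ± 0.69, unadjusted p 0.011, limma adjusted p 0.791). A run inside Dlk1, a transmembrane regulator of adipocyte formation (chr12:109462851-109463100), had 17.4 and 86.5 in peak, against 96.5 and 145 in naive (-1.57 ± 0.61, adjusted p 0.791). In both the peak libraries lay below the naive libraries.

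Among runs with a higher peak mean, the 3 with the smallest p were short. A run inside Gm33148 (chr7:142599951-142600200), of which no function is given here, had 58.8 and 66.1 in peak, against 9.08 and 15.1 in naive (log2 change 2.31). A run 13257 bp from Gnas (chr2:174360001-174360200) had 42.2 and 56.3 in peak, against 22.7 and 5.81 in naive (1.97). A run near Mir298 (chr2:174272751-174272950) had 54.6 and 49.8 in peak, against 23.8 and 25.6 in naive (1.05). In all 3 the groups did not overlap and none was called. The first held 71 and 81 reads in peak, against 8 and 13 in naive, and the second held 51 and 69 reads in peak, against 20 and 5 in naive. The run near Mir298 held 66 and 61 reads in peak, against 21 and 22 in naive. The windows of all 3 met the minimum of 20 reads largely through the peak libraries. That filter favours a difference in this direction, so these changes support nothing further.

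The 2 long runs over Rtl1, a retrotransposon-derived gene of the paternal copy whose antisense strand makes microRNAs, had nearly equal values in the 4 libraries with the deposited scaling. One (chr12:109592101-109593200, with Mir127) had 319 and 308 in peak, against 310 and 292 in naive (0.06 ± 0.96). The other (chr12:109593601-109594700, with Mir434) had 378 and 347 in peak, against 385 and 338 in naive (0.01 ± 1.01). This evenness depended on the scaling: the log2 changes of these 2 runs were 0.39 and 0.34 with TMM in edgeR and 0.96 in both with quantile normalization. Their replicate ratios were between 0.88 and 0.97, where the 9 maternal germline runs gave at least 1.73. Another run over Rtl1 (chr12:109590301-109590700, with Mir431) had 137 and 374 in peak, against 255 and 821 in naive.

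The other strong runs of the domains were mostly lower in the peak mean. A run inside Snhg14, the host RNA of the Snrpn domain (chr7:59960851-59961150), had 57.1 and 268 in peak, against 156 and 997 in naive (-1.66 ± 0.93). Farther along, a run inside Snrpn (chr7:60155451-60155800) had 23.2 and 108 in peak, against 32.9 and 354 in naive. A run inside Zim1 (chr7:6677151-6678100) had 287 and 602 in peak, against 548 and 1211 in naive, and a run of the Peg3 interval with no gene at it (chr7:6616201-6617000) had 229 and 530 in peak, against 565 and 1095 in naive, with no overlap. Inside Peg10, 2 runs beyond the start had 254 and 407 in peak, against 409 and 671 in naive with no overlap (chr6:4754651-4755500), and 224 and 345 in peak, against 345 and 524 in naive (chr6:4755651-4756100). At the second Grb10 start a short run (chr11:12027901-12028150) had 62.1 and 31.0 in peak, against 103 and 84.8 in naive, with no overlap. A run inside the predicted gene Gm7290 (chr7:142757201-142757900) had 132 and 294 in peak, against 220.2 and 353 in naive. A run beside the Mest start (chr6:30735301-30735900) had 83.6 and 222 in peak, against 159 and 337 in naive. Group means were closer in a run inside Igf2r (chr17:12687651-12688350), with 201 and 529 in peak against 406 and 486 in naive. Peak replicate 2 was 2.63 times peak replicate 1 in that run, so its single libraries were not equal. Means were also closer in a short run inside Mest (chr6:30744151-30744350), with 61.3 and 51.4 in peak against 53.4 and 45.3 in naive.

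RNA was compared in 1 library per condition, so these differences have no replicate check and no test. Of 33 listed genes of the domains 18 had at least 50 counts, and 6 of these were at least 2-fold lower and 2 at least 2-fold higher in the peak library. The background among 14367 genes was 9.4% lower and 11.7% higher. Igf2r had 4325 counts in peak, against 459 in naive, a ratio of scaled counts of 8.57 (exact 95% interval 7.79 to 9.46, counting error only). Tspan32, a tetraspanin of blood cells, had 1173 counts in peak, against 361 in naive (2.96). In bulk samples, fewer cells of a type and less RNA per cell cannot be told apart.

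The 6 lower genes are known in mouse for expression from the paternal copy (Peg10, Peg3, Igf2, Mest) or from the maternal copy (Cdkn1c and, outside neurons, Grb10). Peg10 had 346 counts in peak, against 1022 in naive (ratio 0.308), and Igf2 had 141 in peak, against 489 in naive (0.262). Mest had 28 counts in peak, against 100 in naive (0.255), and Peg3 had 156 in peak, against 338 in naive (0.420). Cdkn1c had 136 in peak, against 342 in naive (0.362), and Grb10 had 38 in peak, against 112 in naive (0.309). Gnas, whose last start drew 0 captured reads in its 300 bases and 224 in the wider region, had 15548 counts in peak, against 9157 in naive (1.55). Cd81 had 68403 in peak, against 54338 in naive (1.15). H19 had 2 counts in peak and 0 in naive, Dlk1 had 1 in peak and 6 in naive, and Snurf, Zim2 and Rtl1 had 0 in both. Kcnq1ot1 (2995 in peak, 3873 in naive, 0.704) overlaps Kcnq1, and nothing states if strand was used in counting.

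Some marker lists differed between the 2 RNA libraries and others hardly did. The 10 microglia markers summed to 27187 CPM in peak and 43063 in naive, 2 of them at least 2-fold lower. The 8 monocyte markers summed to 1101 in peak and 50.3 in naive, with 7 at least 2-fold higher, and the 5 endothelial markers to 62.3 in peak and 149 in naive, all 5 at least 2-fold lower. The 6 astrocyte markers summed to 395 in peak and 816 in naive, with 3 at least 2-fold lower and 1 at least 2-fold higher, and the 7 T cell markers to 7.58 in peak and 2.97 in naive, with Cd8a, Cd3g and Cd3e at 0 in at least 1 library. The 5 neutrophil markers summed to 15.7 in peak and 16.9 in naive, the 5 neuron markers to 6.70 in peak and 5.66 in naive, and the 5 oligodendrocyte markers, of which 4 were matched, to 69.0 in peak and 90.7 in naive. Their part in the RNA differences, and in the captured DNA, was not tested.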

How the data were processed

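DNA methylation (MiGS) and RNA were measured in sorted microglia. The submitters' processing notes list build mm10 and the tools edgeR, featureCounts, TopHat and Bowtie2, with no roles or versions. The deposited methylation files hold a signal per 50 bp window. All values were whole reads divided by 1 factor per library (tolerance 0.001), equal to median-of-ratios size factors; windows missing from a library were taken as 0. Because the values were scaled reads and not plain counts, limma 3.58.1 (variance trend, two-sided) on log2(value + 1) was the main test. Benjamini-Hochberg adjustment was at 0.05 over windows with at least 20 reads. Log2 changes computed in this way understate low windows. edgeR 4.0.16 (quasi-likelihood, TMM) and DESeq2 1.42.0 were run on recovered reads as alternatives. Neighbouring windows share fragments and are not independent. The deposited RNA table holds raw counts per gene, per the file headers, and FPKM values of the authors that were not used; counts were scaled by TMM over genes with at least 50 counts. Chromosomes 1 to 19 were analysed. Sequences and start sites come from RefSeq (GRCm38.p6), with start strands of H19, Peg10, Gnasas1 and Cdkn1c from general knowledge. Named runs were the 3 with most reads per domain, those at known regions and the 3 smallest p in each direction; highest windows lay mostly in these runs and are not all named. The members and lists were chosen with earlier results of these data known. The fitting step was first checked on simulated data; every reported value comes from the deposited files. R 4.3.3 and Python 3.11.15 were used. Intervals cover counting error only.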

Additional observations from a re-analysis of the deposited data

How the results depend on the processing

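With at least 50 reads 18 windows of the genome were called, and the domain median was -0.85; with no filter it was -0.046. Leaving out each library in turn gave 0 to 34199 windows and 0 to 5513 runs over the genome, 0 to 74 domain windows and 0 to 4 domain runs, the most in each case without naive replicate 1; a lone library is then assumed to vary like the others. The domain median ran from -0.66 to -0.17 and the log2 ratio of the domain sums from -1.17 to -0.10. Starts outside the known regions with at least 200 reads numbered 3 rather than 7 within 500 bp of the start. Non-overlap counts used TMM and quantile scaling chosen after seeing the data, as were the left-out libraries for the domain sums.

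The replicate numbers are shared between conditions, and deviations of same-numbered libraries correlated (r = 0.398 over windows, 0.463 over runs), but with 2 pairs and no label saying that a number marks a shared batch they share only a number. With the replicate block limma called 70120 windows and 19242 runs over the genome, 284 domain windows (279 lower) and 43 domain runs (42 lower), the 9 maternal germline runs among them; edgeR with the replicate block called 49220, 7639, 241 and 16, with 3 of the 9 maternal germline runs and 0 of the 4 secondary runs among them.

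Directions turned for these runs. With quantile normalization the log2 change was 0.15 at Gnasas1, 0.077 at the H19 control region, 0.36 at Gm7290 (chr7:142757201-142757900), 0.13 at Cdkn1c, 0.48 in Igf2r (chr17:12687651-12688350), 0.22 at the Mest start, 0.0041 in the run beside it, 0.33 and 0.36 in the 2 runs inside Peg10, 0.10 in Zim1 and 0.020 at Snurf-Snrpn. The fourth intergenic Meg3 run gave 0.29 with edgeR, 0.0044 with edgeR at DESeq2 size factors, 0.28 with edgeR and the replicate block and 0.0043 with DESeq2. Leaving out each library in turn gave -0.48 to 0.41 in that run, -2.46 to 0.064 in the intergenic run of -1.20, -1.08 to 0.076 in Gm7290, -1.14 to 0.25 in the Igf2r run, -0.087 to 0.10 in the Mir434 run and -2.79 to 0.60 in the distal Snrpn run. The cause was not tested.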
